A study of Mus musculus with 12 samples.

Results

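The 6 genes described here, Ccn1, Ccn2, Thbs1, Tgfbi, Tagln and Acta2, are classical targets of TGF-beta in fibroblasts that code for extracellular matrix and actin cytoskeleton proteins, and their expression was read in mouse embryoid bodies. They were chosen by name, with earlier results of these data known, and are 6 of 18193 genes on the arrays. All 15 probe sets that name 1 of these genes were examined, 4 for Ccn1, 1 for Ccn2, 2 for Thbs1, 4 for Tgfbi, 1 for Tagln and 3 for Acta2. A probe set assigned to both Pald1 and Thbs1 was left out. Ccn1 and Ccn2 were long known as Cyr61 and Ctgf.

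TGF-beta and its relatives activin and nodal bind pairs of serine/threonine kinase receptors, which phosphorylate Smad2 and Smad3; these enter the nucleus, usually together with Smad4, and act on target genes with other DNA-binding factors. In fibroblasts and smooth muscle this signal, together with the serum response factor SRF and the YAP and TEAD factors, which respond to the actin cytoskeleton and to mechanical load, drives the genes of matrix and contractile fibres. In early embryonic cells the same receptors mostly serve activin and nodal, which are known for inducing mesoderm and endoderm.

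Embryoid bodies, floating aggregates of embryonic stem cells that begin to differentiate, were formed from mouse cells of strain 129 in medium without LIF and treated at day 2.5 for 2 h. The lines were wild type (WT), null for Smad4 (Smad4-null), or knocked down for Trim33 (Trim33-KD), which codes for a nuclear protein that binds Smad2 and Smad3. Each received activin (50 ng/ml) or SB431542, an inhibitor of the activin, nodal and TGF-beta type I receptors, which the labels give as 10 mM. Total RNA was read on Affymetrix arrays, 2 for each of the 6 groups and 12 in all. No group was left untreated, so each activin response is a difference from inhibited cells, and TGF-beta itself was not added. The labels do not say how many clones a genotype stands for, how the knock-down was made, or whether replicates were separate cultures; genotype and cell line cannot be told apart, and p-values may measure only technical spread.

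Each probe set has a log2 signal, and arrays are scaled so that the trimmed mean of every array is 500 on the linear scale. Array medians lay between 5.85 and 6.30 on the log2 scale. Replicates correlated at 0.964 to 0.976 across genes, each read by its brightest probe set. The spread of log2 signal was narrower on WT-SB replicate 2 (SD 3.07) and Smad4-null-ac replicate 1 (SD 3.12) than on the other 10 arrays (3.24 to 3.39); ac and SB in array names stand for activin and SB431542. Trim33 signal in Trim33-KD was 34.4% of that in WT. Smad4 signal in the Smad4-null arrays was 115% of that in WT, and since the labels do not say which part of the gene was mutated, this does not check that label. The 8 markers of pluripotent and epiblast cells summed to 40743 to 49522 linear units in every group, and all 8 exceeded a floor of 64 linear units on all arrays. Of 11 fibroblast markers Col1a1, Lum, Postn and S100a4 were under that floor on all 12 arrays and Col3a1 and Col6a1 on 11, Dcn was under it on 8, and Col1a2, Thy1, Pdgfrb and Col6a2 were above it on all 12. Their summed signal lay between 817 and 1043. Of 9 smooth and cardiac muscle markers Myh11, Myocd and Tnnt2 were under the floor on all arrays, Nkx2-5 on 8, Myl7 on 4 and Des and Myh6 on 1, and Smtn and Cnn1 were above it on all 12. In whole embryoid bodies fewer cells of a type and less RNA per cell cannot be told apart.

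Promoter sequence in RefSeq (GRCm38.p6) was matched for 3 of the 6 genes, Ccn1, Tgfbi and Acta2. The sequences below show where 2 motifs occur in the 250 bases before each start site. These are the letters bound by Smad3 and Smad4 (CAGAC, or GTCTG on the other strand) and by TEAD factors (GGAATG, or CATTCC). Whether they bear on the differences between genotypes was not tested. Sequences run 5′ to 3′ on the strand of the gene, and capitals mark these motifs.
Ccn1, chr3:145649986-145650235, minus strand: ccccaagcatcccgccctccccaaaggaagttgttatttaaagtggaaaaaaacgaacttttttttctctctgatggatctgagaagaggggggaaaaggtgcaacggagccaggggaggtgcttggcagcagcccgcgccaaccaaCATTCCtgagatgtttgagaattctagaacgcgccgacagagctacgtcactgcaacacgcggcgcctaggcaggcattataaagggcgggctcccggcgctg
Tgfbi, chr13:56609336-56609585, plus strand: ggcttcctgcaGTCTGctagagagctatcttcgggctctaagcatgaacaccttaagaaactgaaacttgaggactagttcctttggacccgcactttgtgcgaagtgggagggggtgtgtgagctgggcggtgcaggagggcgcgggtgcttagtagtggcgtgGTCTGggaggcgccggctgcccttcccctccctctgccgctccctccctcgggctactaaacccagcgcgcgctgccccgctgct
Acta2, first stretch, chr19:34255592-34255621, minus strand: acactagcccagtGTCTGggcatttgagca
Acta2, second stretch, chr19:34255502-34255531, minus strand: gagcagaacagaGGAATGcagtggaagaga
The Ccn1 window held 1 TEAD motif, 103 bases before the start site, and no Smad motif of these letters. The Tgfbi window held 2 Smad motifs, at 239 and 85 bases before the start site, and no TEAD motif. The Acta2 window, most of which lies within the annotated span of the gene, held 1 Smad motif 235 bases and 1 TEAD motif 146 bases before the start site used. Of 32851 mouse promoter windows of the same length, 42.2% held the Smad motif and 12.6% the TEAD motif on either strand, so a match describes the letters and shows no binding.

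Across the study the 6 genes did not move as a group. The CCN family genes Ccn1 and Ccn2 had 1.37- to 1.97-fold more signal with activin in WT and Trim33-KD cells. These differences did not pass the threshold over all genes. Thbs1, Tgfbi and Acta2 differed by at most 0.04 on the log2 scale between treatments in WT. Their 95% intervals were wide, at -0.47 to 0.39, -0.73 to 0.65 and -0.61 to 0.70. Between genotypes several members passed the threshold. Smad4-null cells had higher Ccn2 and Tgfbi and lower Tagln and Ccn1 than WT, and Trim33-KD cells had higher Ccn2. Acta2 was lower in Trim33-KD than in WT by about the same size, but missed the threshold over all genes. The calls of Ccn1 in Smad4-null and of Ccn2 in Trim33-KD were lost under most of the alternative fits. Those of Ccn2 and Tgfbi in Smad4-null were lost under fewer, and that of Tagln under none. The plot of the signal on each array shows these patterns.

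**Figure D1:**
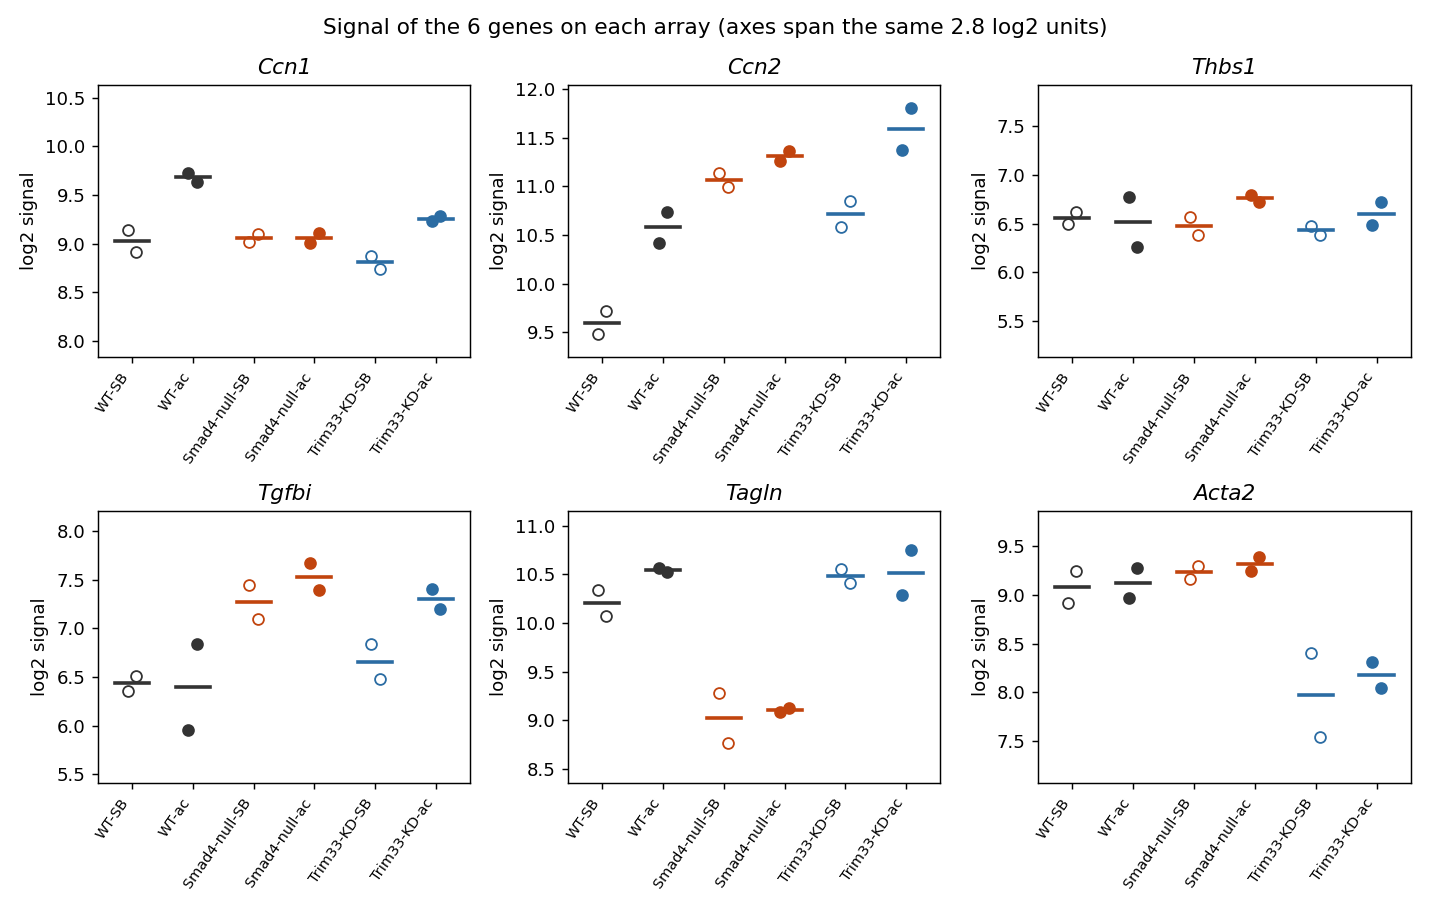
Log2 signal of the brightest probe set of each gene (vertical axis) on each of the 12 arrays, by group (horizontal axis); filled circles are activin arrays, open circles SB431542 arrays, and bars are means of 2 arrays. Tagln is low in both Smad4-null groups (8.76 to 9.28) and Acta2 in both Trim33-KD groups (7.54 to 8.41), while Ccn2 is lowest in WT with SB431542 (9.48 and 9.72).

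In WT cells limma called none of the 6 genes raised or lowered by activin at an adjusted p under 0.05 over all genes, against 0.033% of all genes called. At an unadjusted p under 0.05, 2 of the 6 (Ccn1 and Ccn2) passed, against 4.02% of all genes. Both activin arrays lay above both SB431542 arrays for 3 of the 6 (Ccn1, Ccn2 and Tagln), against 9.66% of all genes. The median difference of the 6 genes was 0.19 on the log2 scale, and that of all genes -0.05. For scale, 3 of 12 genes of the Smad feedback list rose in the same comparison, among them Smad7 by 3.11 and Lefty1 by 2.81.

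In Smad4-null cells none of the 6 genes was called by limma for the activin response, against 0.011% of all genes, and none passed at an unadjusted p under 0.05, against 6.81%. For Ccn2 and Thbs1 both activin arrays lay above both SB431542 arrays; 28.7% of all genes did so. In Trim33-KD cells again none of the 6 was called by limma, against 0.011% of all genes; Ccn1 and Ccn2 passed at an unadjusted p under 0.05, against 4.21%. Here the activin arrays lay above the SB431542 arrays for 4 of the 6 (Ccn1, Ccn2, Thbs1 and Tgfbi), against 10.8% of all genes. For the mean response of the 3 genotypes none of the 6 was called over all genes by limma, against 0.0824%, with Ccn1 and Ccn2 under 0.05 unadjusted, against 4.52%. Testing the brighter 9096 genes alone, limma called both of them raised in this mean response, 2 of the 4 members among those genes, against 0.528% of those genes raised.

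Ccn1 (chr3:145646971-145649985) codes for a secreted matricellular protein that binds integrins, and is an immediate early gene and a YAP target in many cells. Its log2 signal was 9.72 and 9.64 in WT with activin and 9.14 and 8.92 in WT with SB431542. In Smad4-null cells it was 9.01 and 9.11 with activin and 9.02 and 9.10 with SB431542. In Trim33-KD cells it was 9.23 and 9.29 with activin and 8.87 and 8.74 with SB431542. The WT activin arrays were thus the highest of all 12, while the Smad4-null arrays of both treatments overlapped each other and the WT arrays with SB431542.

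The activin response of Ccn1 was 0.65 in WT (1.57-fold, SE 0.12, 95% interval 0.37 to 0.93, n = 2 per group, limma adjusted p = 0.412). It was 0.00 in Smad4-null cells, with a 95% interval of -0.27 to 0.28, and 0.45 in Trim33-KD cells (SE 0.12, limma adjusted p = 0.881). Averaged over the genotypes it was 0.37 (SE 0.07), with a limma adjusted p of 0.255 over all genes and 0.0379 over the brighter 9096. The response was smaller by 0.65 in Smad4-null than in WT cells (95% interval of the difference -1.04 to -0.26, unadjusted p = 0.0055), which did not pass limma's threshold over all genes (adjusted p = 0.474). All 4 Ccn1 probe sets had a positive activin difference in WT (0.32 to 0.70), and the same was true in Trim33-KD (0.45 to 1.23). For the difference between the Smad4-null and WT responses the other brighter probe set gave -0.79, and both dim ones, near the floor of the arrays, gave 0.02 and -0.01. With SB431542 alone Ccn1 differed by 0.03 between Smad4-null and WT cells (95% interval -0.25 to 0.31).

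Ccn2 (chr10:24595442-24598683), the connective tissue growth factor gene, codes for another secreted CCN protein and is a textbook readout of TGF-beta and of YAP and TEAD. Its log2 signal was 10.42 and 10.74 in WT with activin and 9.48 and 9.72 in WT with SB431542. In Smad4-null cells it was 11.26 and 11.36 with activin and 11.14 and 10.99 with SB431542, and in Trim33-KD cells 11.38 and 11.81 with activin and 10.58 and 10.85 with SB431542. The WT arrays with SB431542 were the lowest of the 12, and the 4 Smad4-null arrays lay above all 4 WT arrays. In the order of group means the arrays of neighbouring groups overlapped only between WT with activin and Trim33-KD with SB431542.

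Ccn2 was higher with activin by 0.98 in WT (1.97-fold, SE 0.20, 95% interval 0.52 to 1.44, limma adjusted p = 0.424) and by 0.88 in Trim33-KD (1.84-fold, SE 0.20, limma adjusted p = 0.635). In Smad4-null cells the difference was 0.24, with a 95% interval of -0.21 to 0.70. Averaged over the genotypes it was 0.70 (1.62-fold, SE 0.11), with a limma adjusted p of 0.205 over all genes and 0.0108 over the brighter 9096. The Smad4-null response was smaller than the WT response by 0.74 (95% interval of the difference -1.38 to -0.09, unadjusted p = 0.0304), again not past limma's threshold (adjusted p = 0.654). The Trim33-KD response differed from that in WT by -0.10 (95% interval -0.75 to 0.54), an interval that holds differences in either direction. No gene of either response difference was called over all genes by limma, against 7.24% and 2.67% of all genes at an unadjusted p under 0.05 for Smad4-null and Trim33-KD. Of the 6 genes, Ccn1 and Ccn2 were under 0.05 unadjusted for Smad4-null and 0 for Trim33-KD.

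**Figure D2:**
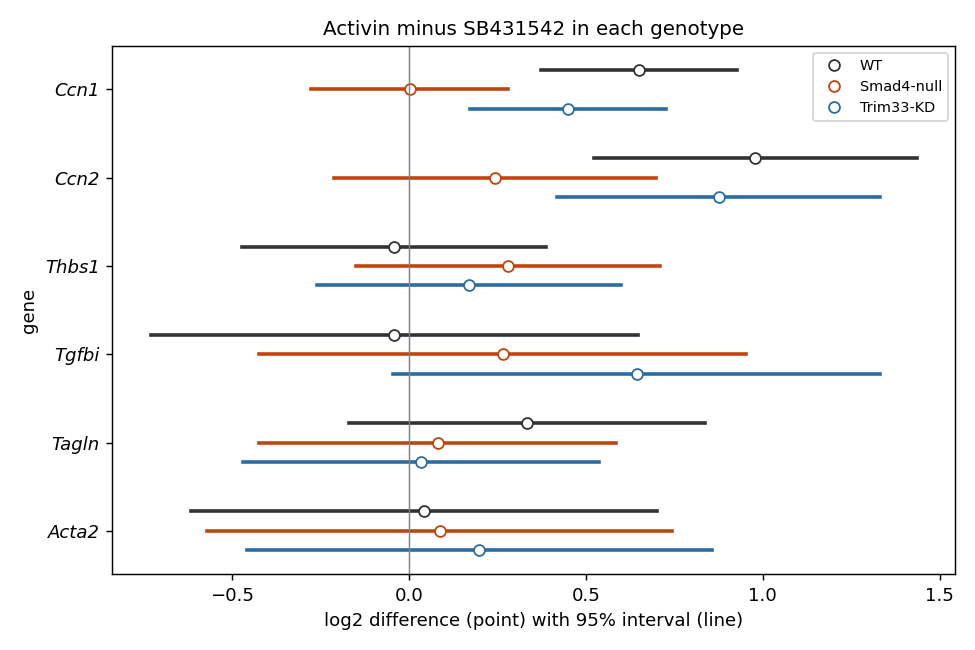
Activin minus SB431542 on the log2 scale (horizontal axis) for each gene (vertical axis) in WT, Smad4-null and Trim33-KD cells; points are differences of means of 2 arrays against 2 and lines are 95% intervals, and open points mark that none was called over all genes. The intervals of Ccn1 and Ccn2 lie above 0 in WT and Trim33-KD and include 0 in Smad4-null.

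Averaged over both treatments, limma called 4 of the 6 genes between Smad4-null and WT cells, 2 raised and 2 lowered, against 18.4% of all genes called. Raised genes made up 7.12% of all genes and lowered genes 11.3%. Of the brighter 9096 genes tested alone, which hold 4 of the members, 37.2% were called. The median difference of the 6 was 0.13, beside -0.03 for all genes. Ccn2 and Tgfbi had all 4 Smad4-null arrays above all 4 WT arrays, as did 10.8% of all genes, and Tagln had them all below, as did 15% of all genes. Between Trim33-KD and WT cells limma called 1 of the 6 genes, Ccn2, which was raised, against 0.649% of all genes called and 0.445% raised (68.6% of the calls, 81.0% after quantile normalization and 90.2% after median centring); 4 of the 6 were under 0.05 unadjusted, against 17% of all genes. Acta2 alone had no overlap between these genotypes, with all Trim33-KD arrays below, as did 6.28% of all genes. Both comparisons share the 4 WT arrays.

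Ccn2 rose by 1.10 in Smad4-null cells (2.14-fold, SE 0.14, n = 4 per genotype, limma adjusted p = 0.00198). With SB431542 alone the difference was 1.47 (2.76-fold, limma adjusted p = 0.0062), and with activin alone 0.73 (1.66-fold, limma adjusted p = 0.0614), against 9.1% and 9.29% of all genes called with each treatment alone. In Trim33-KD cells Ccn2 rose by 1.06 (2.09-fold, SE 0.14, limma adjusted p = 0.0303), and its arrays overlapped those of WT only across treatments. Within a treatment the difference was 1.11 with SB431542 and 1.01 with activin, and neither was called alone (limma adjusted p = 0.178 and 0.226). That call did not hold when any of 11 arrays was left out, with limma adjusted p between 0.0574 and 0.136 and differences between 0.96 and 1.14, and it held without Trim33-KD-ac replicate 1 (1.17, limma adjusted p = 0.0371). Ccn1 fell by 0.30 in Smad4-null cells (81.5% of WT, SE 0.08, limma adjusted p = 0.0483), just inside the threshold, and the arrays overlapped. Its difference lay in the activin arrays, at -0.62 (limma adjusted p = 0.0210), and the Ccn1 call was lost under 18 of 24 alternatives, including 11 of the 12 in which 1 array was left out (limma adjusted p between 0.0646 and 0.151). It held without WT-SB replicate 2 (-0.35, limma adjusted p = 0.0359). In Trim33-KD cells Ccn1 differed by -0.32 (SE 0.08, limma adjusted p = 0.141 over all genes and 0.0345 over the brighter 9096).

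**Figure D3:**
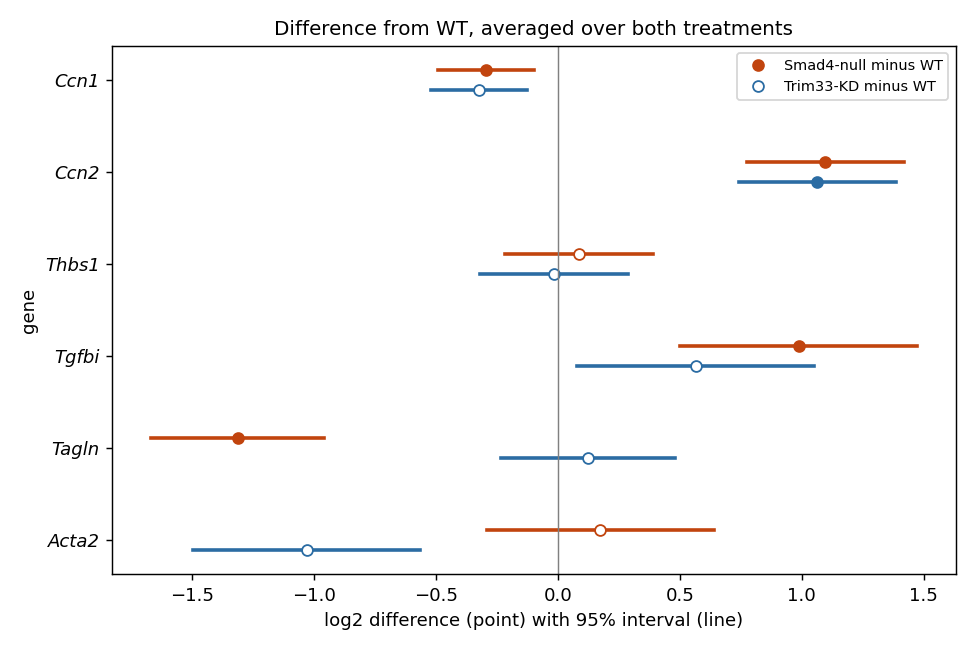
Difference from WT on the log2 scale, averaged over both treatments (horizontal axis), for each gene (vertical axis) in Smad4-null and Trim33-KD cells; points are differences of means of 4 arrays against 4, lines are 95% intervals, and filled points had a limma adjusted p under 0.05 over all genes. Ccn2 is higher in both genotypes (1.10 and 1.06), Tagln is lower in Smad4-null (-1.31) and Acta2 is lower in Trim33-KD (-1.03).

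Thbs1 (chr2:118111876-118127133) codes for thrombospondin-1, a large matrix glycoprotein that can activate latent TGF-beta. Its log2 signal was 6.77 and 6.26 in WT with activin and 6.49 and 6.62 with SB431542. It was 6.80 and 6.72 in Smad4-null with activin, 6.57 and 6.39 with SB431542, 6.48 and 6.72 in Trim33-KD with activin and 6.48 and 6.39 with SB431542. The range over all 12 arrays was 0.54, and the 2 WT activin arrays differed from each other by nearly as much as any of the arrays. In none of the comparisons was Thbs1 called, and its genotype differences were 0.09 for Smad4-null (95% interval -0.22 to 0.39) and -0.02 for Trim33-KD (95% interval -0.32 to 0.29). Its dimmer probe set was higher in all Smad4-null arrays than in all WT arrays, by 0.62 (limma adjusted p = 0.0605 over all probe sets). Both Thbs1 probe sets had mean signals near the floor, at 6.56 and 6.40 on a scale where the floor is 6.

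Tgfbi (chr13:56609586-56639359) codes for a secreted protein with fasciclin domains that links collagen to integrins, and was named for its induction by TGF-beta. Its log2 signal was 5.95 and 6.84 in WT with activin and 6.36 and 6.51 with SB431542. It was 7.67 and 7.40 in Smad4-null with activin and 7.44 and 7.09 with SB431542, and in Trim33-KD 7.40 and 7.20 with activin and 6.84 and 6.48 with SB431542. All Smad4-null arrays lay above all WT arrays, and the Trim33-KD arrays overlapped those of WT. Tgfbi rose by 0.99 in Smad4-null cells (1.98-fold, SE 0.21, limma adjusted p = 0.0159). All 4 of its probe sets were called raised in this comparison, by 0.99 to 2.49, when every probe set was tested with limma, where 3.36% of all probe sets were called raised. The largest of these differences came from a probe set at or under the floor on 9 of 12 arrays. The call of the brightest probe set was lost under 5 of 23 alternatives. It was lost with SB431542 arrays alone (0.83, limma adjusted p = 0.133), with activin arrays alone (1.14, limma adjusted p = 0.0548) and without both arrays of narrow spread (0.96, limma adjusted p = 0.0979). It was also lost, at limma adjusted p of 0.0554 and 0.0598, when the first replicate of Smad4-null with activin or of Smad4-null with SB431542 was left out.

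The difference of Tgfbi between Trim33-KD and WT was 0.56 (SE 0.21, limma adjusted p = 0.239), and all 4 probe sets were positive. The activin difference of Tgfbi was -0.04 in WT, 0.27 in Smad4-null and 0.64 in Trim33-KD (95% interval -0.04 to 1.33). The other 3 Tgfbi probe sets gave 0.05 to 0.27 in Trim33-KD, so the larger value rests on 1 probe set. In the plot of all probe sets the Tgfbi probe sets stand together above 0 in Smad4-null, whereas 1 of the 4 of Ccn1 lies above 0. That probe set, at 0.10, was near the floor. With every probe set tested, the other brighter Ccn1 probe set was called lowered (-0.66, limma adjusted p = 0.0466), beside 5.48% of all probe sets. The brightest was not called there (-0.30, limma adjusted p = 0.137).

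**Figure D4:**
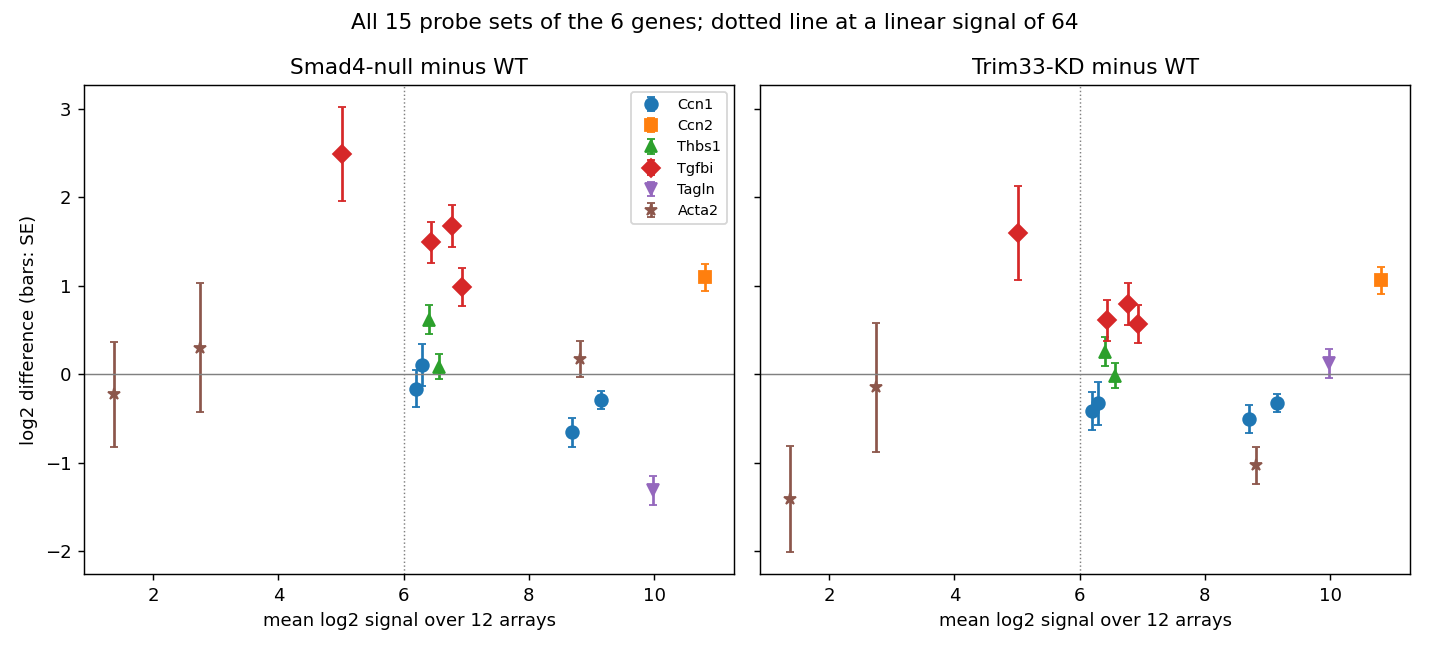
Difference from WT on the log2 scale (vertical axis, bars are SE) against mean log2 signal over the 12 arrays (horizontal axis) for all 15 probe sets, in Smad4-null (left) and Trim33-KD (right); the dotted line is the floor of 64 linear units. The 4 Tgfbi probe sets lie between 0.99 and 2.49 in Smad4-null, and the 2 Acta2 probe sets left of the line were at or under the floor on all arrays.

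Tagln (chr9:45929628-45936058) codes for transgelin, an actin-bundling protein of smooth muscle that is a standard target of SRF and of TGF-beta. Its log2 signal was 10.56 and 10.53 in WT with activin and 10.34 and 10.08 with SB431542. In Smad4-null cells it was 9.08 and 9.13 with activin and 9.28 and 8.76 with SB431542, and in Trim33-KD cells 10.29 and 10.75 with activin and 10.55 and 10.41 with SB431542. The 4 Smad4-null arrays were the lowest of the 12 and lay apart from all others, and the Trim33-KD arrays overlapped those of WT. Tagln fell by 1.31 in Smad4-null cells (40.2% of WT, SE 0.15, limma adjusted p = 0.00146). It fell by 1.19 with SB431542 alone and by 1.44 with activin alone (limma adjusted p = 0.0178 and 0.00925), and all 24 alternatives kept the call. In Trim33-KD the difference was 0.12 (95% interval -0.23 to 0.48). The activin difference was 0.33 in WT (95% interval -0.17 to 0.84), 0.08 in Smad4-null and 0.03 in Trim33-KD.

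In Smad4-null cells, where Tagln was lower, the summed markers of smooth and cardiac muscle were lower too. Those 9 markers summed to 1380 to 1600 linear units on the WT arrays and 1133 to 1238 on the Smad4-null arrays. On the Trim33-KD arrays the sum was 1314 to 1404, overlapping WT, and Tagln was not called there. The member Acta2 did not follow this sum, with differences from WT of 0.17 in Smad4-null and -1.03 in Trim33-KD. Smtn and Cnn1 had the highest median signals of the 9 (9.14 and 8.45 on the log2 scale) and weigh most in the linear sum. Cnn1 is also in the lists of family relatives and of SRF genes. Of the 9, 4 were called lowered and 1 raised in Smad4-null, beside 11.3% and 7.12% of all genes. Primitive streak and mesoderm markers, 6 of 7 measured, summed to 8138 to 8249 in WT with activin and 3961 to 4062 in WT with SB431542. They summed to 410 to 681 in Smad4-null and 2023 to 5052 in Trim33-KD. In Smad4-null 5 of the 6 were called lowered, beside 11.3% of all genes. The streak and mesoderm sum also differed between treatments within WT, so it may not stand for a number of cells. Whether the makeup of cell types had a part in the Tagln and Ccn1 results was not tested.

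Acta2 (chr19:34240336-34255585) codes for smooth muscle alpha-actin, the contractile actin of smooth muscle cells and myofibroblasts. Its log2 signal was 8.97 and 9.28 in WT with activin and 8.92 and 9.25 with SB431542. It was 9.25 and 9.39 in Smad4-null with activin, 9.17 and 9.30 with SB431542, 8.31 and 8.04 in Trim33-KD with activin and 8.41 and 7.54 with SB431542. The 4 Trim33-KD arrays were the lowest of the 12, while WT and Smad4-null arrays overlapped. Acta2 in Trim33-KD was 49.0% of WT, a difference of -1.03 (SE 0.20, 95% interval -1.49 to -0.56) with a limma adjusted p of 0.0802 over all genes and 0.00608 over the brighter 9096, where 3.94% of genes were called lowered. Without Trim33-KD-SB replicate 2, the lowest array, it was -0.81 (limma adjusted p = 0.133), and without Trim33-KD-SB replicate 1 it was -1.25 and passed (limma adjusted p = 0.0418). The difference in Smad4-null was 0.17 (95% interval -0.29 to 0.64), and activin differences were 0.04 in WT, 0.09 in Smad4-null and 0.20 in Trim33-KD. The other 2 Acta2 probe sets were at or under the floor on all 12 arrays and give no level.

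None of 5 other actin genes was called in Trim33-KD against WT. The differences were 0.26 for Acta1, 0.03 for Actg2, 0.11 for Actb and 0.09 for Actg1, and -0.72 for the cardiac actin gene Actc1 (limma adjusted p = 0.122). Among 19 family relatives of the 6 genes limma called 1 in Trim33-KD, beside 0.649% of all genes. This was the CCN gene Ccn4, which rose by 1.79 (SE 0.18, limma adjusted p = 0.0144) from a mean level under the floor. In Smad4-null 6 of the 19 were called, 2 raised and 4 lowered, beside 7.12% raised and 11.3% lowered among all genes. Ccn3 rose by 1.16 and the neuronal transgelin relative Tagln3 by 0.78, whereas Actc1 fell by 1.53, the calponin gene Cnn1 by 1.52, Acta1 by 0.68 and Thbs3 by 0.57. The median of the 19 was -0.18, beside -0.03 for all genes.

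Genes that share a pathway with the members were read from fixed lists, in Smad4-null against WT. In that comparison 11.3% of all genes were lowered and 7.12% raised. Among the brighter 9096 genes tested alone, 21.6% were lowered and 15.6% raised. That set holds 16 of the 20 SRF and actin genes and 11 of the 16 immediate early genes. It also holds 10 of the 16 YAP and TEAD genes, 10 of the 15 ligand, receptor and Smad genes and 8 of the 19 other TGF-beta targets. Of 20 SRF and actin cytoskeleton genes 7 fell and 1 rose. Those that fell included the focal adhesion gene Zyx (by 1.91), Cnn1 (by 1.52), the tropomyosin gene Tpm1 (by 0.79) and Srf itself (by 0.69), with limma adjusted p of 0.0105 or less for all 4, and the non-muscle myosin gene Myh9 rose by 0.56. The list median was -0.26. Of 16 immediate early genes, many of which SRF also serves, 8 fell and none rose; Fosl1 fell by 1.49, Fos by 1.37, Junb by 1.26 and Egr1 by 1.12, and the median was -0.78.

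Of 16 YAP and TEAD genes, a group in which Ccn1 and Ccn2 are usually counted, 4 fell and none rose in Smad4-null, beside 11.3% and 7.12% of all genes, with a median of -0.32. Nt5e fell by 3.67, Ptpn14 by 0.99, Axl by 0.82 and Amotl1 by 0.80. Of 19 measured other fibroblast TGF-beta targets 2 rose and 4 fell, beside 7.12% and 11.3% of all genes, with a median of -0.26: Timp1, an inhibitor of matrix proteases, rose by 0.77 and the fibronectin gene Fn1 by 0.75, and Tgfb1i1 fell by 1.95, the integrin gene Itgb5 by 0.83, Col1a2 by 0.48 and Itgav by 0.30. Of 15 TGF-beta ligands, receptors and Smads 5 fell and 1 rose, beside 11.3% and 7.12% of all genes, with a median of -0.20. The co-receptor gene Tgfbr3 fell by 2.99, the type II receptor gene Tgfbr2 by 1.20, the ligand gene Tgfb1 by 0.96 and the co-receptor gene Eng by 0.78, and Smad2 rose by 0.25.

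**Figure D5:**
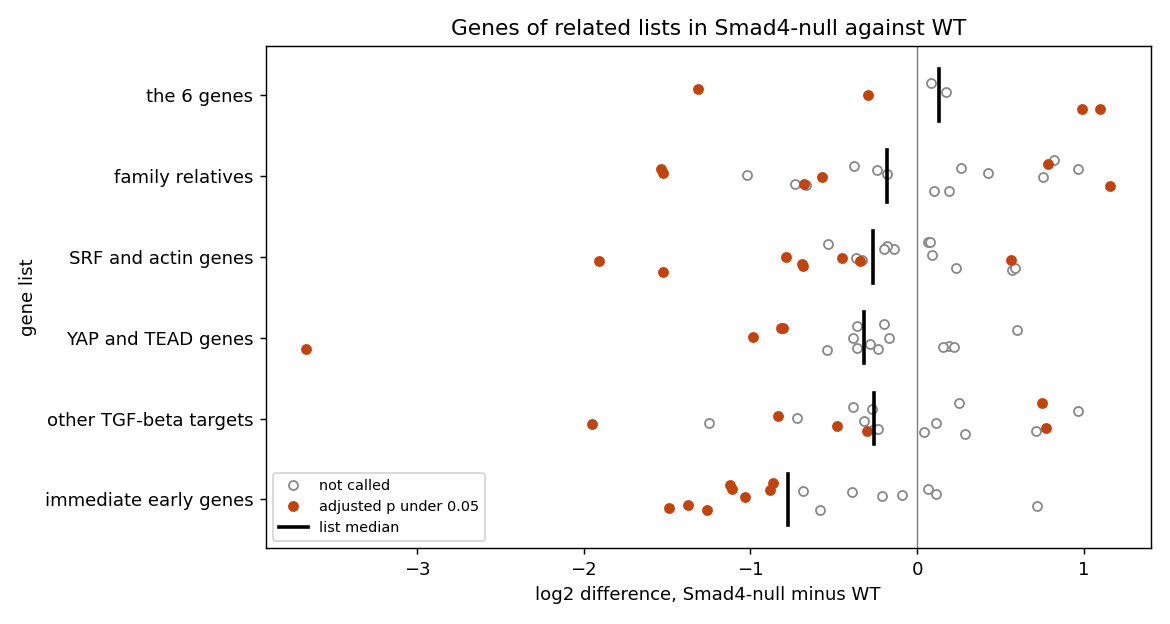
Smad4-null minus WT on the log2 scale (horizontal axis) for the genes of 6 of the lists (vertical axis); filled points had a limma adjusted p under 0.05 over all genes and black bars are list medians. The 6 genes spread on both sides of 0 with a median of 0.13, and the immediate early genes have a median of -0.78.

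These lists hold 103 different genes besides the members. In Trim33-KD against WT limma called 2 of the 103, Ccn4 and the stress-induced gene Atf3 (raised by 1.21), beside 0.649% of all genes called. At an unadjusted p under 0.05 there were 21, beside 17% of all genes. For the activin responses limma called none of the 103 in any genotype, beside 0.033% of all genes in WT and 0.011% in Smad4-null and in Trim33-KD. Unadjusted, 3 were under 0.05 in WT, 5 in Smad4-null and 3 in Trim33-KD, beside 4.02%, 6.81% and 4.21% of all genes.

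The genes whose signal followed a member most closely were taken from the brighter 9096 genes, by Pearson correlation over the 12 arrays, for the 4 members among those genes. The 12 points share 3 lines and 2 treatments, so these values are a description. Ccn1 ran closest to the pluripotency factor gene Nanog (0.915), the ephrin receptor gene Epha2 (0.905) and Kazn (0.904). Ccn2 ran closest to Chst1 (0.927), Tle4 (0.919) and Slc25a17 (0.916), Tagln to Eef1akmt1 (0.979), Adgrl2 (0.977) and Smyd2 (0.977), and Acta2 to Crebrf (0.967), Trim33 (0.963) and Hacl1 (0.958).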

How the data were processed

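Total RNA of 12 embryoid body samples in 6 groups of 2 was read on 1 Affymetrix mouse array each. The deposited table holds log2 values, as their range shows; their antilog has a mean of 500 on each array after trimming 2% from either side, and cRNA was labelled with biotin, per the labels. How probes were summarized is not stated in the labels; the submitters' processing notes name limma. The deposited log2 values were not renormalized, so arrays differ in spread. Precision is limited by the number of arrays.

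Of 45101 probe sets 64 are controls and 34945 have exactly 1 gene symbol in the platform annotation. The brightest probe set stood for each of 18193 genes. A means model over the 6 groups was fitted in R 4.3.3 with limma 3.58.1 (lmFit, eBayes) and Benjamini-Hochberg adjustment over all genes at 0.05; intervals are 95%. The fit was checked on simulated data. A further fit used the upper 50% of genes by mean signal. Figures used Python 3.11.15 and matplotlib 3.10.9.

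The members and lists were chosen with earlier results of these data known. Named are the members, Smad4 and Trim33, up to 4 called genes of each list by size and up to 3 by signal, and the 3 genes most correlated with a member; Actg2, Acta1, Thbs3, Myh9, Smad2, Col1a2 and Itgav were named after their values were seen. A list gene without its own probe set was not analysed here. Arrays with the same replicate number were not treated as pairs in the main fit, as the labels do not say that these numbers pair arrays. Results were recomputed with quantile normalization, with median centring, on the upper 50% of genes, with probe sets averaged per gene, on every probe set, with a trended and robust prior, with array weights, with a replicate block, with values floored at 64, within each treatment, and without each array in turn or the 2 of narrow spread.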

Additional observations from a re-analysis of the deposited data

How the results depend on the processing

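For the activin responses in each genotype and the response differences, no alternative called any of the 6 genes. For the mean response of the 3 genotypes 2 members (Ccn1 and Ccn2) were called among the upper 50% of genes, which hold 4 of the members, and 1 (Ccn2) with a trended and robust prior. For Smad4-null against WT the count of 4 became 2 without the narrow-spread arrays, with SB arrays alone and with activin arrays alone, and ranged from 2 to 4 when 1 array was left out (lowest without Smad4-null-ac replicate 1 and Smad4-null-SB replicate 1). For Trim33-KD against WT the count of 1 became 3 among the upper 50% of genes, which hold 4 of the members and of which 8.65% were called, 2 with a trended and robust prior and 0 with every probe set tested, without the narrow-spread arrays, with SB arrays alone and with activin arrays alone; it ranged from 0 to 1 when 1 array was left out. Gene counts over all genes in these comparisons ranged from 1656 to 4162 for Smad4-null (3356 as reported) and from 0 to 787 for Trim33-KD (118 as reported). With the replicate block, 3 members were called in Smad4-null, Ccn1 being lost (limma adjusted p = 0.0704), and 1 in Trim33-KD; 2 genes in all were called in the WT response (6 without it). Same-numbered arrays of the 2 treatments deviated together at 0.385 in WT and 0.335 in Trim33-KD and at -0.192 in Smad4-null, where a crossed block, chosen after seeing the data, called 0 members and 0 genes (2 genes without it). Median centring shifted every gene by 0.12 in the WT response, -0.16 in the Smad4-null response, -0.28 and -0.12 in the response differences of Smad4-null and Trim33-KD and 0.20 in Trim33-KD against WT.

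Directions reversed in 58 recomputed results, in none of which the reversed value was called. The 1432 recomputed results also include counts of called genes, which have no direction, so 58 of 1432 is not the share of directions that reversed. The cause was not tested. In the WT response Thbs1 (-0.04 as reported) became 0.051 with quantile normalization, 0.077 with median centring, 0.094 with probe sets averaged per gene and 0.021 without the narrow-spread arrays, and Tgfbi (-0.04) became 0.048, 0.077 and 0.037 under the first, second and last of these. With median centring the Smad4-null responses became -0.16 for Ccn1, -0.078 for Tagln and -0.072 for Acta2, and the Smad4-null response difference of Acta2 became -0.23 (-0.049 without the narrow-spread arrays). With probe sets averaged per gene, which takes in dim ones, Acta2 responses became -1.10 in WT, -0.53 in Trim33-KD and -0.27 in the mean, Tgfbi became -0.095 in the Smad4-null response and -0.084 in its difference from WT, and the Trim33-KD response difference of Ccn1 became 0.19. That of Acta2 became -0.0092 without the narrow-spread arrays. For Smad4-null against WT with SB arrays alone Ccn1 became 0.029 and Thbs1 -0.075. For Trim33-KD against WT Thbs1 became 0.15 with quantile normalization, 0.18 with median centring, 0.12 with probe sets averaged per gene, 0.014 without the narrow-spread arrays and 0.088 with activin arrays alone, where Tagln became -0.026.

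Leaving out 1 array, the WT response ranged from -0.30 to 0.22 for Thbs1, -0.48 to 0.40 for Tgfbi and -0.12 to 0.21 for Acta2. The Smad4-null response ranged from -0.048 to 0.053 for Ccn1 and -0.18 to 0.34 for Tagln, the Trim33-KD response from -0.19 to 0.26 for Tagln and -0.23 to 0.63 for Acta2, and the mean response of Acta2 from -0.034 to 0.25. The response difference of Smad4-null ranged from -0.12 to 0.21 for Acta2, -0.13 to 0.75 for Tgfbi and -0.51 to 0.0067 for Tagln, and that of Trim33-KD from -0.28 to 0.59 for Acta2, -0.32 to 0.11 for Ccn2 and -0.047 to 0.47 for Thbs1. Thbs1 ranged from -0.043 to 0.21 in Smad4-null and from -0.15 to 0.11 in Trim33-KD against WT.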
